A study of Homo sapiens with 40 samples.

Results

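The RNAs described here are 9 abundant structural or long noncoding RNAs of human cells: RN7SK, RN7SL1, RN7SL2, RMRP, RPPH1, MALAT1, NEAT1, H19 and MEG3. They were chosen by gene name, with no measured value in the rule, and they are 9 of the 56568 gene names in the deposited tables. Of the 9, 8 were above 0 in at least 1 library, and MEG3 was listed at 0 in all 40. The cells were HepaRG, a human hepatoma line that matures in culture into hepatocyte-like and biliary-like cells and labelled HPR 116 throughout. They received their treatment from day 8 to day 14, and the RNA of 8 groups of 5 libraries was sequenced after depletion of ribosomal RNA.

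The groups were a solvent control, PCB 126 at 100 pM, 10 nM or 1 µM, glyphosate at 0.1 g/L, 1 mg/L or 10 µg/L, and Roundup at 10 µg/L. PCB 126 is a dioxin-like polychlorinated biphenyl and ligand of the aryl hydrocarbon receptor, glyphosate is a herbicide, and Roundup is a glyphosate-based formulation. Every group, the control included, was kept in test medium with fetal bovine serum and the solvent DMSO. The comparisons asked whether each exposure altered RNA levels relative to the solvent, and whether Roundup differed from glyphosate at the same nominal 10 µg/L. The same 5 control libraries served all comparisons with the control. The labels do not say that the libraries of a group came from separate cultures, so the p-values measure the spread between these libraries, which may be technical.

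RN7SK, RN7SL1, RN7SL2, RMRP and RPPH1 are short RNAs made by RNA polymerase III, each the scaffold of a protein complex. 7SK RNA holds the elongation factor P-TEFb in an inactive particle, the 7SL RNAs form the core of the signal recognition particle that brings secreted proteins to the endoplasmic reticulum, and RMRP and RPPH1 are the RNA subunits of RNase MRP and RNase P, which process ribosomal and transfer RNA precursors. MALAT1 and NEAT1 are neighbouring long RNAs of the nucleus, retained in nuclear speckles and forming the core of paraspeckles, respectively. H19 and MEG3 are imprinted long noncoding RNAs that are high in fetal tissues, H19 being abundant in fetal liver and the host of a microRNA.

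Values are FPKM, fragments per kilobase of transcript and per unit of sequenced fragments, summed over the transcripts of a gene. The annotation holds 2 names for the same bases at the RN7SL1 gene, and RN7SL2 is nearly the same sequence, and the assignment of fragments among them carries much of what follows. RN7SL1 lies at chr14:49586580-49586878 on the plus strand of GRCh38 and AL139099.5 at chr14:49586579-49586878 on the same strand, both as single-exon transcripts. The RN7SL2 gene is the single exon at chr14:49862550-49862849 on the minus strand. RN7SL1 and AL139099.5 were thus a single stretch of genome under 2 names. RN7SL2 matched RN7SL1 at 295 of its 299 bases, or 98.7%. Of the 225 windows of 75 bases in RN7SL1, 174 (77.3%) occurred word for word elsewhere in the genome, and so did 190 of 226 (84.1%) in RN7SL2 and 162 of 254 (63.8%) in RN7SK, but none in RPPH1, RMRP or MALAT1. A single read of 75 bases from RN7SL1, RN7SL2 or RN7SK could therefore often be placed at more than 1 spot. Reads were sequenced in pairs, and how often a whole pair was ambiguous was not measured. The levels of these 3 RNAs are uncertain.

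In every one of the 40 libraries exactly 1 of the names RN7SL1 and AL139099.5 held more than 1 FPKM, and the other held at most 0.002242 FPKM. The name with the signal carried 11909 to 55485 FPKM. It was RN7SL1 in 13 libraries and AL139099.5 in 27. All 5 control libraries and all 5 libraries at 100 pM PCB 126 carried the signal as AL139099.5. The name RN7SL1 carried it in 3 of 5 libraries at 10 nM PCB 126, with 33383, 11909 and 19189 FPKM, and in 1 of 5 at 1 µM, with 28504 FPKM. Among the herbicide groups it was used in 1 library at 10 µg/L glyphosate, 2 at 1 mg/L, 4 at 0.1 g/L and 2 with Roundup. In the 0.1 g/L group the 4 libraries held 26078, 32049, 31679 and 34768 FPKM under RN7SL1 and the other library held 36819 FPKM under AL139099.5. The values under the 2 names thus lay in the same range.

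**Figure D1:**
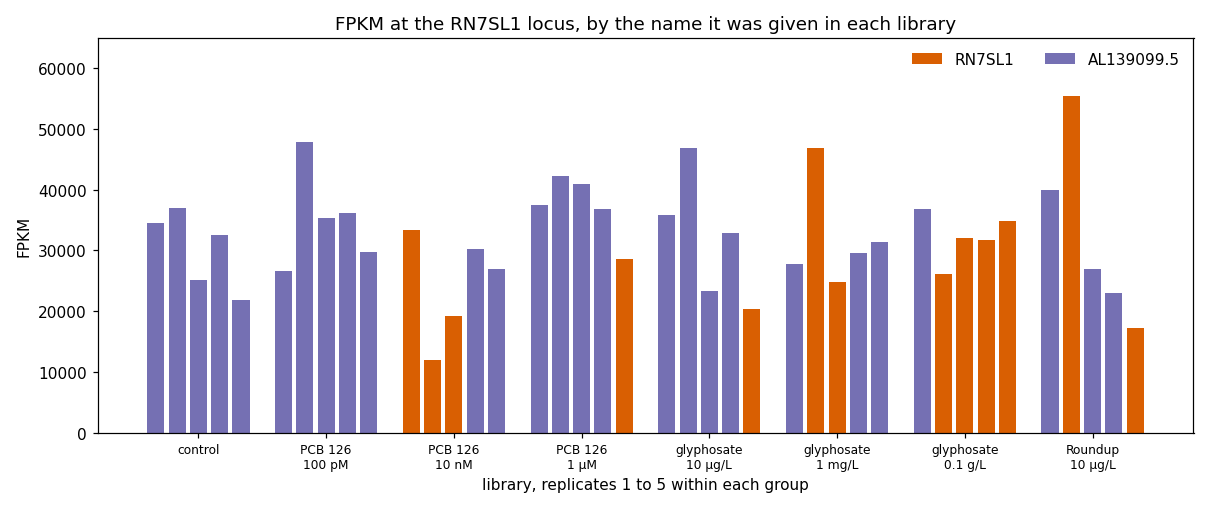
Bars give the FPKM at the RN7SL1 gene (vertical axis, linear) in each of the 40 libraries, grouped by treatment along the horizontal axis with replicates 1 to 5 in order, and coloured by the name that held the value. Each bar has a single colour: 13 libraries used RN7SL1 and 27 used AL139099.5, while the bars of both colours cover overlapping heights between 11909 and 55485 FPKM.

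Taken as its own gene, RN7SL1 had a difference of 8.56 (SE 2.61) in log2(FPKM + 1) at 10 nM PCB 126 and of 11.94 (SE 3.47) at 0.1 g/L glyphosate. Neither passed limma's test with Benjamini-Hochberg adjustment over all genes (adjusted p = 0.338 and 1), and since RN7SL1 was listed at 0 in all control libraries neither value is a fold. AL139099.5 had the opposite differences of -8.93 and -11.82 in the same groups (adjusted p = 0.338 and 1). With both names summed, the locus differed by -0.37 at 10 nM (SE 0.27, 95% interval -0.93 to 0.18, adjusted p = 0.865). At 0.1 g/L it differed by 0.11 (SE 0.28, interval -0.45 to 0.68, adjusted p = 1). The use of the name RN7SL1 also varied with how the reads had aligned: it was used in 5 of the 9 libraries in which more than 30% of read pairs aligned to several places, and in 8 of the 29 below that limit. The part of multiple alignment in the naming was not tested. A further 4 assembled transcripts without a gene name overlapped the locus and averaged 4913 FPKM, against 583 FPKM for 3 such transcripts at RN7SL2, and these are not in the sums above. The 4 transcripts averaged 5206 FPKM in the control, 3584 at 10 nM and 2132 at 0.1 g/L. With them added, in a sum chosen after seeing the data and not tested, the locus averaged 35386 ± 5526 FPKM in the control, 27935 ± 11086 at 10 nM and 34411 ± 4206 at 0.1 g/L (SD, n = 5), so the small difference at 0.1 g/L changed its sign.

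Ordered by level, the RNAs ran RN7SK, the RN7SL1 locus (both names summed), RN7SL2, RPPH1, RMRP, MALAT1, NEAT1, H19 and MEG3. RN7SK was the highest, with a mean of 39394 FPKM ± 11313 (SD, n = 40), and it exceeded the RN7SL1 locus in 37 of 40 libraries. The locus averaged 31943 FPKM ± 8891 and RN7SL2 25077 ± 6831, in that order in 39 of 40 libraries. The values of the first 3 overlapped over the libraries, with a median ratio of 1.27 between RN7SK and the locus and 1.24 between the locus and RN7SL2. RPPH1 averaged 14228 ± 4062 FPKM and RMRP 7864 ± 2198, and RPPH1 was the higher in all 40. MALAT1 followed at 560 ± 228 FPKM, 15.6 times below RMRP by the median ratio. NEAT1, by the row of that name alone, averaged 5.16 ± 2.36 FPKM and H19 0.707 ± 0.401. From RPPH1 downwards the order was the same in every library.

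Together the 9 RNAs took between 14.5% and 34.3% of the summed FPKM of a library, with a median of 22.5%. When AL139099.5 was counted as RN7SL1, the median share was 29.3% and the range 14.5% to 35.1%. By RNA, the median shares were 9.47% for RN7SK, 7.78% for the RN7SL1 locus, 6.08% for RN7SL2, 3.51% for RPPH1, 1.93% for RMRP and 0.130% for MALAT1. With AL139099.5 included, the control libraries lay between 28.1% and 31.0%, and the 5 libraries at 1 µM PCB 126 between 31.1% and 35.1%. At 10 nM PCB 126 the share ran from 14.5% to 30.9%, where 14.5% was that of replicate 2 alone and the other 4 libraries held 25.4% or more. The other groups reached into the range of the 1 µM libraries, for instance with 27.3% to 34.7% at 100 pM, and the summed share was given no test. FPKM divide by transcript length, and these short RNAs therefore weigh far more in the summed FPKM than in the fragments. The share of fragments was not analysed here.

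**Figure D2:**
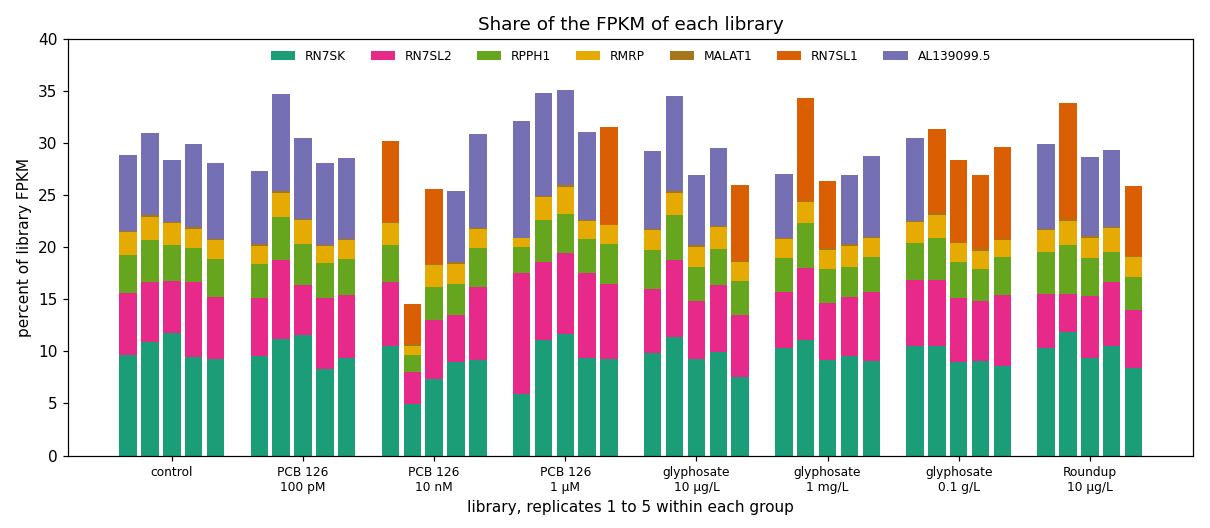
Stacked bars give the percent of the summed FPKM of each of the 40 libraries (vertical axis) held by RN7SK, RN7SL2, RPPH1, RMRP, MALAT1 and the RN7SL1 locus under either name, by treatment group along the horizontal axis. The 5 libraries at 1 µM PCB 126 reach 31.1% to 35.1% and the control libraries 28.1% to 31.0%, while 1 library at 10 nM stops at 14.5%.

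The 40 libraries differed in summed FPKM from 255292 to 513059, and read depth was not used here. Read pairs that aligned to several places made up more than 30% in 9 libraries, spread over the control, 10 nM, 1 µM, 10 µg/L, 0.1 g/L and Roundup groups, and 2 libraries could not be classed. These 9 had lower medians than the 29 others for RN7SK, RN7SL2, RMRP, RPPH1, MALAT1, NEAT1 and H19, for instance 27556 against 43954 FPKM for RN7SK, 278 against 617 for MALAT1 and 0.292 against 0.843 for H19. RN7SL1 under its own name went the other way, with 17230 against 0 FPKM, while the locus under both names stood at 22943 against 32899. This class of libraries is mixed with dose. Of the 9, those at 10 nM and 1 µM PCB 126 held H19 at 0.0856, 0.122, 0.0501 and 0.287 FPKM. The remainder of the 9 held 0.292 to 0.884 FPKM. The parts of dose and of alignment in the lower medians were not tested. The cells expressed hepatocyte genes in all libraries, with a mean of 10526 FPKM for ALB, and the biliary markers KRT19 at 267 and SPP1 at 42.9 FPKM, while EPCAM was at 0.0065. Of the mesenchymal markers LUM averaged 67.0 and COL3A1 10.6 FPKM but VIM 0.13. The leukocyte markers CD14 and CD68 averaged 2.87 and 1.48 FPKM, PTPRC 0.014, and each endothelial marker 0.212 FPKM or less. In bulk RNA, fewer cells of a type and less RNA per cell cannot be told apart.

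None of the 7 members that entered the test of all genes rose or fell in any of the 8 comparisons at an adjusted p of 0.05 by limma. H19 and MEG3 did not pass the filter on variance and are described separately below. The share of all genes called was 0% at 100 pM PCB 126, 0.205% at 10 nM and 1.87% at 1 µM. It was 0% in each of the 3 glyphosate groups, with Roundup, and between Roundup and glyphosate. The F-tests called 0 members as well, against 1.39% of all genes over the 4 groups of the PCB 126 table, 0% over the 5 groups of the glyphosate table and 2.3% over all 8 groups. At an unadjusted p under 0.05, 1 member passed at 10 nM (RN7SL1, through its name) and 1 at 0.1 g/L (RN7SL1 again), and none in the other 6 comparisons.

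**Figure D3:**
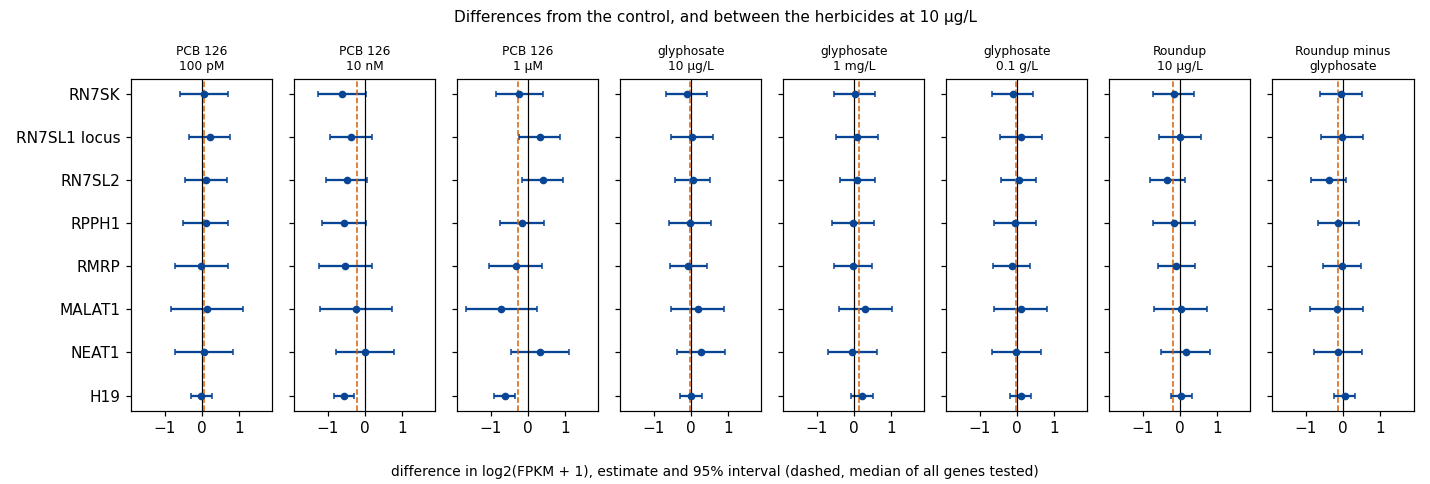
Points give the difference in log2(FPKM + 1) with its 95% interval from limma for each RNA (rows) in the 8 comparisons (panels), with H19 from the fit without a filter on variance and the RN7SL1 locus as the sum of both names. The dashed line is the median of all genes tested, and the H19 intervals at 10 nM and 1 µM PCB 126 lie wholly below 0 while those of the other RNAs all cross 0.

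RN7SK, the scaffold of the 7SK particle, was lowest at 10 nM PCB 126. The control libraries held 45420, 51226, 50116, 38439 and 27659 FPKM. The libraries at 10 nM held 45165, 15534, 19508, 39808 and 27556 FPKM. The groups overlapped, although 3 of the 5 treated libraries lay under every control, 2 of them far under. The difference at 10 nM was -0.61 in log2(FPKM + 1) (SE 0.31, interval -1.25 to 0.03, adjusted p = 0.865), and the median gene shifted by -0.21 in the same comparison. Scaled to the same sum in every library, the RN7SK difference was -0.35 and the median gene 0.02. At 1 µM RN7SK differed by -0.23 (SE 0.31, adjusted p = 0.730) and in the other comparisons by -0.17 to 0.05.

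RN7SL2, one of the 7SL RNAs of the signal recognition particle, had its lowest mean of the 8 groups at 10 nM PCB 126 and its highest at 1 µM. The controls held 28360, 26683, 21333, 29566 and 17987 FPKM. The 1 µM libraries held 38674, 31824, 34917, 35536 and 22051 FPKM, and the 10 nM libraries 26528, 9430, 14939, 20217 and 20675 FPKM. At 1 µM, 4 of 5 libraries were above every control library and the fifth was within their range. The difference was 0.39 (SE 0.27, interval -0.17 to 0.96, adjusted p = 0.523) at 1 µM and -0.49 (SE 0.27, interval -1.05 to 0.07, adjusted p = 0.865) at 10 nM. Over the 4 groups of the PCB 126 table the F-test gave RN7SL2 an unadjusted p of 0.0253 and an adjusted p of 0.391. As a share of the library, RN7SL2 took 7.25% to 11.6% at 1 µM and 4.99% to 7.25% in the controls, so the groups met at 1 library each, and the scaled difference of 0.49 had an adjusted p of 0.173.

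With Roundup, the RN7SL2 libraries held 25232, 18389, 21213, 19231 and 14179 FPKM, all but 1 of them within the control range. The difference from the control was -0.34 (SE 0.23, interval -0.81 to 0.14, adjusted p = 0.902). Against glyphosate at the same 10 µg/L it was -0.39 (SE 0.23, interval -0.86 to 0.08, adjusted p = 0.974). The other members differed between Roundup and glyphosate by -0.17 to -0.02, apart from RN7SL1 with its change of name (3.10, SE 3.47, adjusted p = 0.974). No member separated the 2 herbicide preparations by the test, and the interval for RN7SL2 leaves room for a decrease of up to 0.86.

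The 2 endonuclease RNAs stayed close to RN7SK in their pattern over groups. RPPH1 averaged 14998 ± 3207 FPKM in the control, 10647 ± 3987 at 10 nM and 13559 ± 3782 at 1 µM (SD, n = 5). Its difference at 10 nM was -0.57 (SE 0.29, interval -1.16 to 0.03, adjusted p = 0.865). RMRP averaged 8533 ± 1949 FPKM in the control, 6284 ± 2615 at 10 nM and 7354 ± 3407 at 1 µM, with a difference of -0.53 (SE 0.35, adjusted p = 0.865) at 10 nM. Both groups overlapped the controls for both RNAs. In the herbicide groups RPPH1 averaged 14228 to 15131 FPKM and RMRP 7628 to 8269 FPKM, with differences of -0.15 to -0.02 for the pair.

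At 10 nM, 5 of the 7 members tested had lower values than the control and 2 higher ones, with a median of -0.49 beside -0.21 for all genes tested. The balance turned with the scaling, to 4 higher and 2 lower with a median of 0.07 after quantile normalization, and stood at 1 higher and 6 lower with the locus summed. At 1 µM the counts were 4 lower and 3 higher, with a median of -0.17 beside -0.26 for all genes. Neither count contains a called member, and at 10 nM the members varied by library: the 2 libraries with the lowest RN7SK at 10 nM were also the 2 lowest for RN7SL2 and RPPH1.

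MALAT1, the speckle RNA, spread widely within groups. The controls held 660, 1020, 496, 441 and 245 FPKM, and the 1 µM libraries 90.5, 554, 920, 313 and 208 FPKM. The 1 µM group held the lowest library of all 40 and the groups overlapped. The difference at 1 µM was -0.71 (SE 0.47, interval -1.68 to 0.25, adjusted p = 0.502), and in the other comparisons -0.24 to 0.31. MALAT1 spans chr11:65497762-65506516 on the plus strand, with 18 annotated transcripts of which 11 were above 0. A fragment of only 95 bases, at chr11:65502914-65503008, carried 387 of the gene's 560 FPKM on average, or 69.0%, while the 8708-base full-length transcript averaged 10.1 FPKM. The MALAT1 value is thus mainly that of a short internal transcript model.

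NEAT1, the paraspeckle RNA, was low under that name. Rows named NEAT1_1, NEAT1_2 and NEAT1_3 were not summed into it, and they averaged 15.1, 9.01 and 12.3 FPKM in the control. At 1 µM PCB 126 they averaged 11.2, 33.2 and 9.40 FPKM, with NEAT1_2 from 2.51 to 134 FPKM over the libraries. The values below are of the NEAT1 row alone. Control libraries held 3.40, 7.44, 7.37, 3.87 and 1.96 FPKM, and the 1 µM libraries 3.08, 4.45, 12.5, 6.43 and 5.47 FPKM. One library at 1 µM stood above all controls and the others lay among them. The difference at 1 µM was 0.34 (SE 0.38, interval -0.44 to 1.12, adjusted p = 0.674), and the others ranged from -0.12 to 0.28. The gene spans chr11:65422774-65445540 on the plus strand. Its short transcript of 1811 bases averaged 2.44 FPKM (47.3% of the gene) and its long transcript of 22743 bases, the form that builds paraspeckles, 1.34 FPKM (25.9%).

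**Figure D4:**
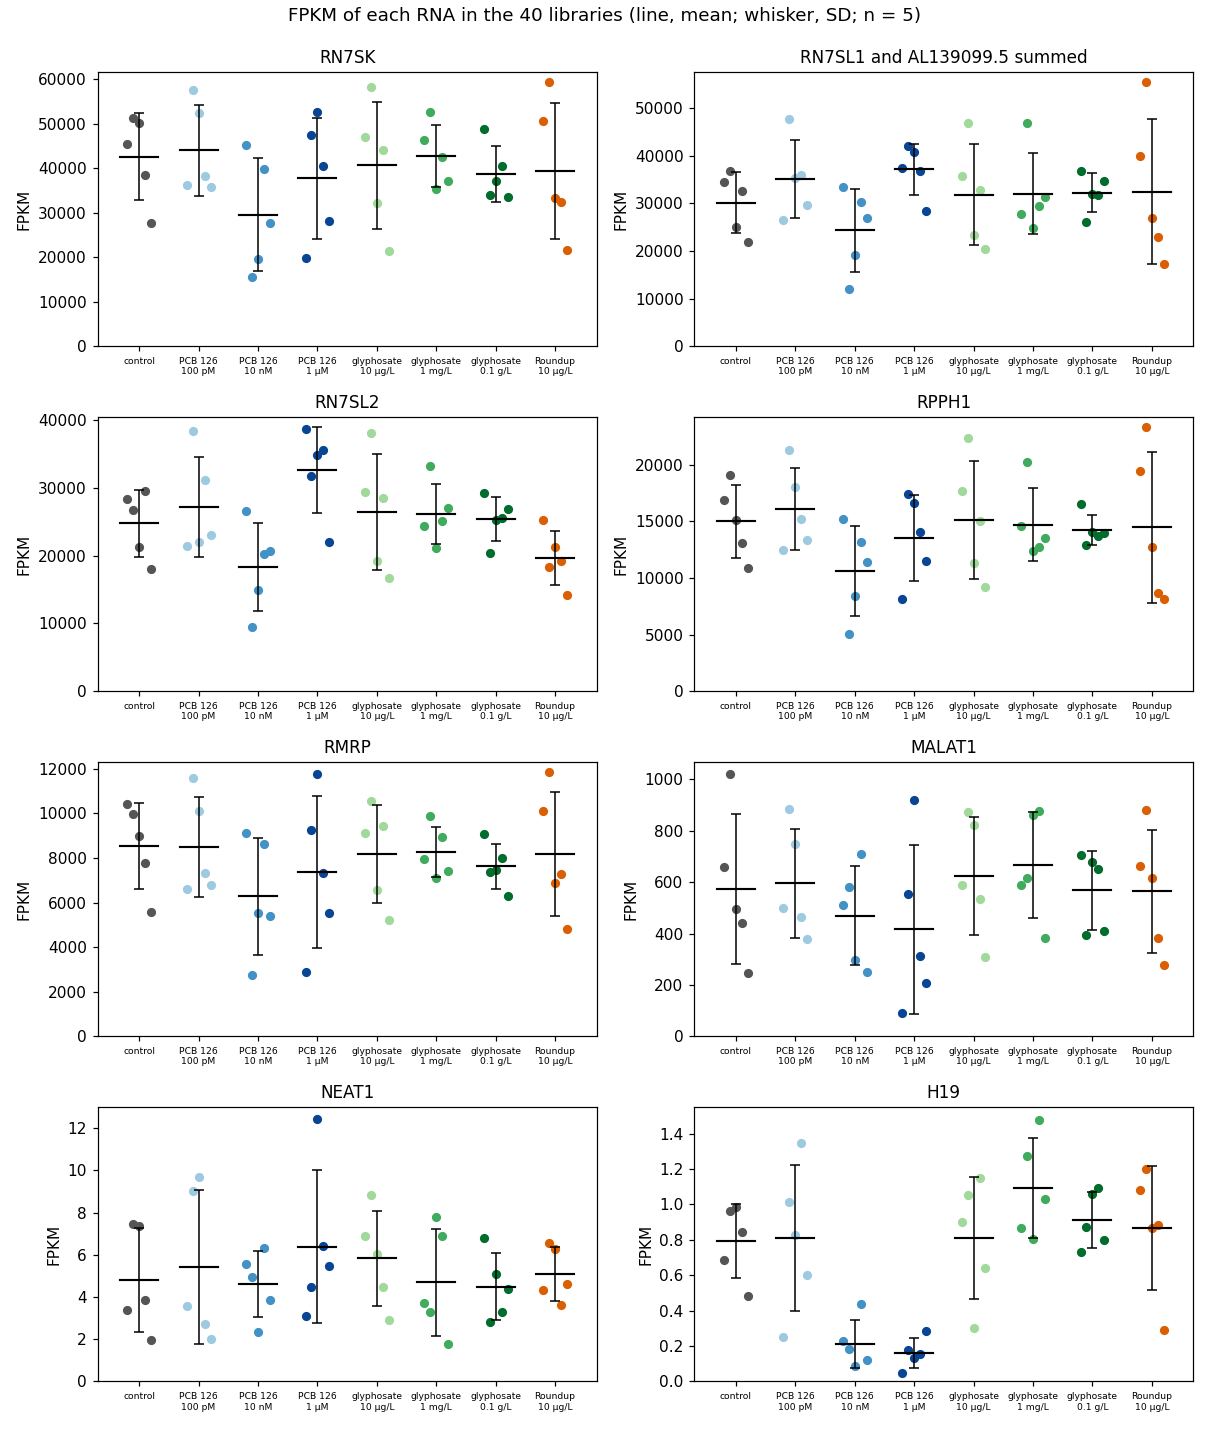
Each panel gives 1 RNA, with FPKM on a linear axis from 0 and the 8 treatment groups along the horizontal axis; points are libraries, the line is the mean and the whisker the SD (n = 5). RN7SK, RPPH1 and RMRP have their lowest means at 10 nM PCB 126, RN7SL2 its highest mean at 1 µM (32600 FPKM), and H19 its 2 lowest means at 10 nM and 1 µM.

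H19 had its lowest levels at the 2 higher PCB 126 doses. The gene lies on the minus strand at chr11:1995163-2001470, and none of the 75-base windows in the span of its most abundant transcript occurred elsewhere in the genome. The control libraries held 0.686, 0.963, 0.986, 0.843 and 0.485 FPKM. At 10 nM the libraries held 0.227, 0.184, 0.0856, 0.437 and 0.122 FPKM, and at 1 µM 0.0501, 0.180, 0.134, 0.157 and 0.287 FPKM. In these sums over transcripts of different lengths, every library of these 2 groups lay below every control library. The whole value of control replicate 2 stood under a transcript of 861 bases, against 2361 bases for the most abundant one. FPKM divide by transcript length, and whether the groups stay apart with transcripts weighted by length was not examined. The lowest dose of 100 pM gave 0.253, 1.01, 0.830, 1.35 and 0.604 FPKM, on both sides of the controls.

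H19 did not enter the test of all genes, and it was tested alone by a test that was chosen after its groups were seen not to overlap, which fixes the p at its minimum, so the p is a description. By the means, H19 was 3.76-fold lower at 10 nM and 4.90-fold lower at 1 µM than in the control. All libraries of these 3 groups held less than 1 FPKM, and without read counts these folds carry no counting interval. An exact permutation test on FPKM, two-sided, gave p = 0.00794 for each dose, which is the smallest that 252 splits of 5 against 5 allow, and 0.0317 after Benjamini-Hochberg adjustment over the 8 comparisons of H19, which leaves out that it was singled out among 9 members. At 100 pM the exact permutation test gave p = 0.952. As a share of the library, H19 was 3.35-fold lower at 10 nM and 4.37-fold lower at 1 µM, with the same exact p. Among all 43478 genes above 0 in the PCB 126 table, 0.322% at 10 nM and 1.04% at 1 µM had every treated library below every control library.

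The test across all genes gave a less firm answer, since H19 varied too little in FPKM to pass the filter on variance. With no filter, its difference in log2(FPKM + 1) was -0.56 at 10 nM (SE 0.13, interval -0.84 to -0.29, adjusted p = 0.346) and -0.62 at 1 µM (SE 0.13, interval -0.90 to -0.34, adjusted p = 0.0525). These differences understate the fold of a gene under 1 FPKM. Neither passed limma's threshold, in comparisons where 0.0115% and 0.212% of genes were called lower. At 1 µM the call depended on the setting, since H19 passed under 3 other scalings and a pseudocount of 0.1, with adjusted p between 0.00697 and 0.0265, and at 10 nM under none of them. In the F-test over all 8 groups without the filter, H19 was called (adjusted p = 0.000782), as were 0.776% of genes.

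**Figure D5:**
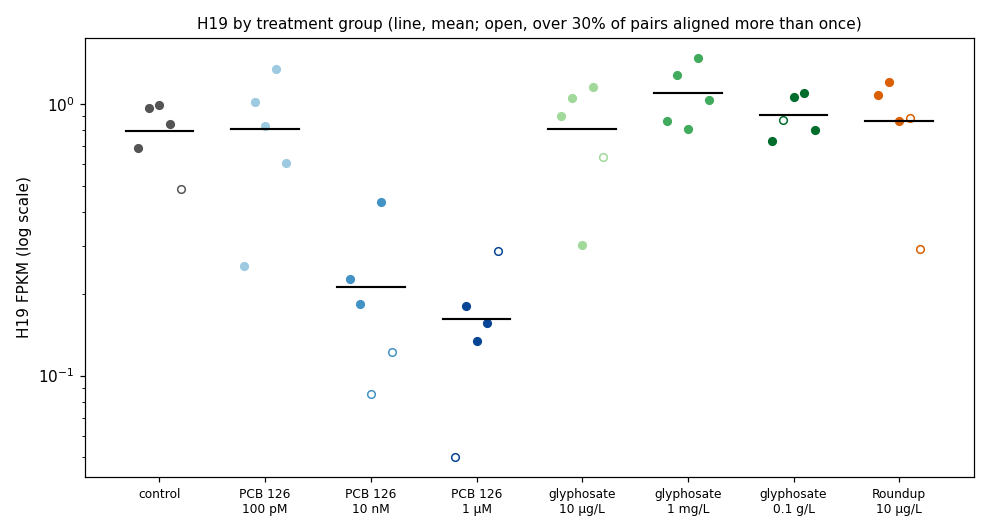
H19 in FPKM on a log axis for the 40 libraries by treatment group; the line is the group mean and open points are libraries in which over 30% of read pairs aligned to several places. The 10 libraries at 10 nM and 1 µM PCB 126 all lie at or below 0.437 FPKM and the 5 control libraries at or above 0.485 FPKM.

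In the herbicide groups the H19 libraries overlapped those of the control. Glyphosate gave means of 0.810 ± 0.343, 1.09 ± 0.282 and 0.912 ± 0.160 FPKM at 10 µg/L, at 1 mg/L and at 0.1 g/L, and with Roundup the mean was 0.865 ± 0.350, against 0.793 ± 0.209 in the control (SD, n = 5). The exact permutation p-values of these 4 comparisons ran from 0.103 to 0.921, and that of Roundup against glyphosate was 0.802. The limma intervals without a filter ran from -0.29 to 0.29 for 10 µg/L glyphosate and from -0.25 to 0.33 for Roundup.

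Without the 9 libraries in which over 30% of read pairs aligned to several places, H19 held 0.184 to 0.437 FPKM in 3 libraries at 10 nM and 0.134 to 0.180 in 3 libraries at 1 µM, against 0.686 to 0.986 in 4 control libraries. By the summed FPKM the groups stayed apart. The 7 hepatocyte markers summed to 13443 to 19709 FPKM in the control, 7963 to 20832 at 10 nM and 5459 to 13544 at 1 µM. Of them TTR, the thyroid hormone carrier transthyretin, fell at 1 µM (-1.62, adjusted p = 0.00797, limma). The 5 biliary and progenitor markers summed to 224 to 452 FPKM in the control, 128 to 301 at 10 nM and 122 to 215 at 1 µM, with EPCAM at 0.0065 FPKM on average, and none of the 3 tested was called. The 8 mesenchymal markers, led by LUM, summed to 40.9 to 89.1, 51.5 to 156 and 50.6 to 190 FPKM. The collagen gene COL3A1 among them fell by 1.87 at 10 nM (adjusted p = 0.0232) and by 3.07 at 1 µM (adjusted p = 2.29e-05). The part of the cell mixture in the H19 difference was not tested.

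H19 is also the host of the microRNA gene MIR675, at chr11:1996759-1996831 on the minus strand within its first exon. The 2 mature miR-675 RNAs are shown because their bases lie inside the H19 transcript, in the RefSeq sequences of GRCh38, with the seed (bases 2 to 8) in capitals.
hsa-miR-675-5p: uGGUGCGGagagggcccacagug
hsa-miR-675-3p: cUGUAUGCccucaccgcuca
The seeds differ, so the pair belongs to separate seed groups. The 73-base MIR675 row averaged 0.423 FPKM in the control, 0.284 at 100 pM, 0.0960 at 10 nM and 0.111 at 1 µM, with 2 of 5 libraries at 0 in each of the last 2. In the herbicide groups it averaged 0.342 to 0.557 FPKM. The row covers bases of the host transcript, and the mature microRNAs were not measured. Among H19 transcripts, the 2361-base ENST00000414790 carried 55.2% of the gene, with 0.324 FPKM in the control, 0.157 at 10 nM and 0.0658 at 1 µM. Its mean was higher in the groups at 100 pM and with the herbicides, at 0.419 to 0.590 FPKM. In control replicate 2 the whole H19 value of 0.963 FPKM stood under another transcript, ENST00000436715. The control libraries thus did not all lie above the treated ones for ENST00000414790.

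MEG3, at chr14:100779410-100861031 on the plus strand, was listed at 0 for all 27 of its transcripts in all 40 libraries. Its imprinted neighbours DLK1, RTL1 and DIO3 were also listed at 0 throughout. IGF2, the neighbour of H19, averaged 0.0052 FPKM and KCNQ1OT1 0.254 FPKM. None of the 8 imprinted neighbours in the list passed the filter on variance.

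None of the tested protein partners of these RNAs was called in the 8 comparisons. Only 0% to 1.87% of all genes were called there, so 0 calls in such short lists say little about the partners. For the 7SK particle, 6 of 7 genes were tested, with the methyl-capping enzyme MEPCE at 9.47 to 26.5 FPKM over the libraries and the kinase CDK9 at 15.6 on average, and none was called. All 8 genes of the signal recognition particle and its receptor were tested and none was called, with SRP9 at 76.0 and SRPRA at 28.6 FPKM. For RNase P and RNase MRP it was 0 of 7 tested from a list of 11, with POP7 at 10.4 and POP5 at 9.07 FPKM. Of 12 speckle and paraspeckle proteins 0 were called, with NONO at 73.4 FPKM. Of 12 RNA polymerase III factors, 9 were tested for PCB 126 and 8 for the herbicides, and again 0 were called, with MAF1 at 19.4 and SSB at 19.2 FPKM. At 1 µM the medians were -0.39 for the 7SK proteins, -0.26 for the signal recognition particle and -0.25 for the speckle proteins, beside -0.26 for all genes. The RNase P and RNase MRP proteins had a median of -0.16 and the RNA polymerase III factors of -0.30.

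Among other structural small RNAs, 15 of the 26 with a row were tested and 0 were called in the 8 comparisons, beside 0% to 1.87% of all genes. RN7SL3, the remaining 7SL gene, averaged 390 FPKM and the U3 RNA gene SNORD3A 224 FPKM. Their list had a median difference of -0.77 at 10 nM beside -0.21 for all genes, and of -0.20 at 1 µM beside -0.26. For other long noncoding RNAs, 11 of 16 were tested for PCB 126 and 10 for the herbicides, and 0 were called. SNHG5 averaged 83.4 FPKM and NORAD 70.0. HULC, a long noncoding RNA of hepatocytes, averaged 1.63 FPKM in the control, 6.25 at 10 nM and 6.61 at 1 µM. Its differences of 1.39 (adjusted p = 0.338) and 1.32 (adjusted p = 0.120) did not pass, and it was called only in the F-test over all 8 groups (adjusted p = 0.0011).

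Within groups, the members varied together from library to library. After subtraction of group means, log2(FPKM + 1) of the RN7SL1 locus and of RN7SL2 correlated over 40 libraries with Pearson's r = 0.84 and Spearman's rho = 0.84 (permutation test, p = 1e-05, the smallest that 100000 permutations can give, adjusted p = 1e-05 and 1.5e-05 over 3 relations). Without the 2 libraries farthest from the median of the locus, r was 0.90. RN7SK and RN7SL2 gave r = 0.67 and rho = 0.62 (permutation p = 1e-05 and 3e-05, adjusted p = 1e-05 and 3e-05), and r = 0.73 without the 2 farthest libraries. MALAT1 and NEAT1 gave r = 0.75 and rho = 0.73 (permutation p = 1e-05 for each, adjusted p = 1e-05 and 1.5e-05), and r = 0.71 without the 2 farthest. All these points share their library, its depth and its multiple alignment. The 7SL pair also shares sequence. RN7SL1 under its own name was either at about 0 or at 11909 FPKM or more, so no r of that row with RN7SL2 was computed, and MEG3 at 0 gave none with H19.

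The ratio of RN7SK to RN7SL2, which cancels the scale of a library, had a median of 1.60 in the control (1.30 to 2.35) and of 1.27 at 1 µM PCB 126 (0.512 to 1.50). With Roundup it ran from 1.51 to 3.23. The ratio of the RN7SL1 locus to RN7SL2 was between 1.10 and 1.38 in the control and reached 3.02 in 1 Roundup library. This library held 55485 FPKM under RN7SL1 and 18389 under RN7SL2.

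Among 12618 genes with a mean of at least 1 FPKM, the genes closest to each member by r of deviations from group means over the 40 libraries differed between members. RN7SK was closest to GALNT18 (0.91), LASP1 (0.90) and SCARNA13 (0.89). RPPH1 was closest to SCARNA13 (0.86), LASP1 (0.85) and HIST1H4K (0.84), which shares 2 genes with RN7SK. RN7SL2 was closest to CUEDC2 (0.82), SLC26A11 (0.76) and SCARNA13 (0.76), and RMRP to TAOK3 (0.87), USP31 (0.84) and TGIF1 (0.83). The genes close to MALAT1 included POGZ (0.95) and the Y_RNA rows (0.95). NEAT1 was closest to EMP1 (0.81), FAR2P1 (0.81) and NPIPB3 (0.80). H19 was closest to NQO1 (0.77), C1QL1 (0.77) and GGA3 (0.76). RN7SL1 under its own name reached 0.42 at most, with BOK, and this r follows mainly which of the 2 names held the signal. These are descriptions of library-to-library variation, with no test.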

How the data were processed

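RNA of 40 HepaRG libraries in 8 groups of 5 was sequenced, and groups were taken from the labels. The authors used HISAT2 for alignment to GRCh38 and assembled and quantified transcripts with StringTie. They deposited 2 tables of FPKM for 234960 transcripts, with the control libraries in both. Some columns held negative values (4 in the PCB 126 table, 6 in the glyphosate table), so those deposited columns were treated as a score and the negatives set to 0. FPKM were summed per gene name, ambiguous between overlapping or near-identical genes. The tables hold no read counts and read depth was not used, so no counting interval is given, and libraries were classed at 30% multiply aligned pairs by the study's alignment summary.

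limma 3.58.1 in R 4.3.3 was fitted to log2(FPKM + 1), all groups of a table together, for genes with a variance of FPKM above 1, with Benjamini-Hochberg adjustment and a threshold of 0.05. This scale understates the change of low genes. Exact permutation tests, correlations (deviations from group means) and sequence comparisons used Python 3.11.15, SciPy 1.17.1 and Biopython 1.88. The limma script was tested on simulated data. Alternatives covered pseudocount, filter, scaling, libraries, replicate block and array weights, and some, among them the summing of RN7SL1 with AL139099.5 the exact tests of H19 and every H19 fit without the filter beyond the plain one, were chosen after seeing the data. The members and gene lists were chosen with earlier results of these data known. All 9 members are named; of each list, the genes past the threshold and the 2 with the highest mean; and as most alike, the 3 genes with the highest r. Some items that these rules select are not reported here.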

Additional observations from a re-analysis of the deposited data

Results flagged for a closer look

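Of 70 sets of 5 libraries examined, 1 per RNA and group, 4 held a library whose gap to the nearest other exceeded 0.71 of the group's range. RN7SL1 was examined both under its own name and summed with AL139099.5, and sets with all values equal were left out. Chance marks about 1 in 20 such sets when values are normally distributed, which those of RN7SL1 under its own name were not. RN7SL1 stood at 28504 FPKM in replicate 5 at 1 µM PCB 126, where the others held 0 to 0.002242 FPKM. It stood at 20403 FPKM in replicate 5 at 10 µg/L glyphosate, where the others held 0. In replicate 1 at 0.1 g/L glyphosate RN7SL1 was 0, and the others held 26078 to 34768 FPKM. In these groups the other name of the same bases, AL139099.5, held the signal wherever RN7SL1 did not. RPPH1 stood at 20231 FPKM in replicate 2 at 1 mg/L glyphosate, and the others held 12381 to 14598 FPKM.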

How the results depend on the processing

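No member was called in any comparison by the chosen fit, and over 2130 differences of the 7 tested members from a control or between herbicides under the alternatives 1953 stayed uncalled with the same sign, 168 stayed uncalled with the sign changed (RN7SL1 at 10 nM from 8.56 to -0.37 when summed with AL139099.5) and 9 were called. With only the 2 groups compared, 1 member was called at 10 nM PCB 126 and 1 at 0.1 g/L glyphosate, RN7SL1 in both. With array weights 1 member was called at 10 nM (RN7SL1), 2 with Roundup, 4 for Roundup against glyphosate, and 3, 4 and 3 in the F-tests of the PCB 126 table, the glyphosate table and all 8 groups. Of all genes, the weights called 2.45% at 10 nM, 9.38% in the F-test of the PCB 126 table and 11.3% in that of all 8 groups. The shares were 36.4% with Roundup, 46.7% for Roundup against glyphosate and 58% in the F-test of the glyphosate table. The estimate of these weights stopped before it converged for the glyphosate table and for all 8 groups, so their calls there are not reliable, and it converged for the PCB 126 table. As numbers of genes these last 3 were 3470, 4448 and 5527, where the chosen fit called 0 and no other alternative counted here more than 2. Fits without a single library, and unfiltered fits with a further change, were not counted here. With no filter the F-test of all 8 groups called 1 member, H19. Leaving out each library in turn, 0 to 1 members were called in the F-test of the PCB 126 table (RN7SL1, without replicate 5 at 10 nM or replicate 5 at 1 µM).

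All genes called at 10 nM numbered 20, and 0 to 239 over all alternatives, single libraries left out and unfiltered fits included (0 with no filter and without control replicate 2, 3 or 4, 100 pM replicate 2 or 10 nM replicate 1, 2 or 5, where 1352 to 2064 genes had an unadjusted p under 0.05). At 1 µM they numbered 182 (66 to 1318), 136 passed the F-test of the PCB 126 groups (77 to 915) and 224 that of all 8 groups (171 to 1708). At an unadjusted p under 0.05 the 8 comparisons passed 84 to 1322 genes. H19 at 1 µM without the filter passed the threshold when scaled to an equal sum per library (-1.03, adjusted p = 0.00697), with 75th-percentile scaling (-0.57, 0.00701), with quantile normalization (-0.52, 0.0100) and with a pseudocount of 0.1 (-1.80, 0.0265). Without single libraries its difference ran from -0.69 to -0.58 (adjusted p from 0.0173 to 0.159), and it passed without replicate 5 of the control, replicates 1 or 4 at 100 pM or replicate 4 at 10 nM. Without the libraries over 30% multiply aligned its adjusted p was 0.076. At 10 nM H19 passed under none of these alternatives, with adjusted p between 0.0542 and 0.853. The cause of these shifts was not tested. The median share of the members was 26.9% of the transcripts with a gene name and 29.3% with AL139099.5 counted.

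The labels carry no replicate number. Runs of library numbers were used as a replicate block, with which H19 at 1 µM had -0.62 and an adjusted p of 0.0244, and H19 passed the F-test of the PCB 126 groups (adjusted p = 0.0281, against 0.0514 without the block). None of the 7 tested members gained a call, while all genes called rose from 20 to 37 at 10 nM, from 182 to 357 at 1 µM and from 136 to 270 in the F-test of the PCB 126 groups. Libraries of the same run had a median r of 0.0501 over 140 pairs, against -0.0202 over 560 others. By the mean r with the libraries of each run in other groups, 30 of 40 libraries were closest to their own run. The chosen fits hold no term for the run. Of the 9 libraries over 30% multiply aligned, 5 were of replicate 5. Read depth was not used here, so values near 0 have no detection limit.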
